A study of Homo sapiens with 8 samples.

Results

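The nuclear lamina is the filament layer under the nuclear envelope, and the 10 genes described here encode its filaments and the membrane and chromatin proteins that attach to them: LMNA, LMNB1, LMNB2, LBR, TMPO, EMD, BANF1, LEMD3, SUN1 and SUN2. They were chosen by gene symbol, with earlier results of these data known. All 10 were present among the 19775 genes that the arrays name with a single symbol. The cells were RL, an established human B lymphoma line carrying the t(14;18) translocation. They had grown for 14 days as multicellular aggregates of lymphoma cells (MALC) and were sorted after staining with the RNA dye pyronin Y. Cells bright for the dye were taken as cycling and cells that took up little of it as quiescent, with 4 samples in each group, all from the same line and culture form and with no other treatment named. RNA of each sample was read on 1 Affymetrix U133 Plus 2.0 array.

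Lamins are intermediate filament proteins. B-type lamins (LMNB1, LMNB2) keep a farnesyl lipid tail and stay at the inner nuclear membrane, whereas lamin A loses its tail during maturation and lamin C, made from the same gene LMNA, never has one. LBR, the lamin B receptor, spans the inner membrane, binds lamin B and the heterochromatin protein HP1, and also carries a sterol reductase domain. TMPO (LAP2 proteins), EMD (emerin) and LEMD3 (MAN1) share the LEM domain, which binds BANF1 (BAF), a small DNA-bridging protein. SUN1 and SUN2 cross the inner membrane and hold the KASH proteins of the outer membrane, linking the lamina to the cytoskeleton. In dividing cells the lamina is taken apart at mitosis and rebuilt in each daughter nucleus, and lymphocytes are known for low lamin A and high LBR.

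The deposited arrays share a trimmed mean (500.1 with 2% of probe sets cut at each end), but their medians ran from 71.9 to 113.4 and were 0.413 higher in quiescent samples on the log2 scale, so the scaling decides part of every small difference. Differences are therefore given as log2 quiescent minus cycling with arrays centred on their medians, and beside this as deposited and after quantile normalization. Over the 11678 genes tested, the median of this difference came to -0.33 with centring, 0.08 as deposited and -0.04 with quantile normalization. A gene is said to have fallen or risen where limma's adjusted p was under 0.05. Whether the samples were grown as separate cultures is not in the labels, and the p-values cover the spread among these samples alone, some or all of which may be technical. The 5 measured markers of B cells summed to intensities of 51250 to 61831 in cycling and 51025 to 62458 in quiescent samples. When centred 4 of them fell, against 32.5% of all genes tested, but none fell as deposited, against 15.4%. Each of those 4 calls was lost in 5 to 7 of 8 fits that left out 1 array. The 8 markers of T, NK, myeloid, stromal and endothelial cells summed to 731 to 1117 in cycling and 917 to 1537 in quiescent samples, with NKG7, CD14, LYZ and COL1A2 under the filter on dim genes and no marker called under any of the 3 scalings.

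In quiescent cells, the transcripts of LMNB1, LBR, TMPO and BANF1 fell under all 3 scalings, by 1.73-fold to 2.14-fold as deposited. LMNB2 fell when centred and after quantile normalization, and EMD fell only when centred. LEMD3, LMNA, SUN1 and SUN2 passed the test under none of the scalings. Sample numbers 1 and 2 alone gave no call for any of the 10 genes, and the centred differences of LBR, BANF1, LMNB1, TMPO and LMNB2 there were -0.77, -1.11, -1.14, -0.96 and -0.52. With sample numbers 3 and 4 alone they were -1.63, -1.91, -1.57, -1.49 and -2.04, all called (limma). Of all 11678 genes tested, numbers 3 and 4 alone gave 4830 lower and 361 higher, and numbers 1 and 2 alone gave 412 and 31. Because the 10 genes were chosen with earlier results of these data known, the counts that follow describe them and test nothing. With all samples, 6 of the 10 genes were lower when centred, against 32.5% of all genes tested. As deposited 4 were lower against 15.4%, and after quantile normalization 5 against 16.3%. None was higher, where the shares of all genes were 2.8% centred, 12.2% as deposited and 10.5% after quantile normalization. At an unadjusted p under 0.05, limma gave 7 lower and 0 higher when centred, 5 lower and 1 higher as deposited, and 5 lower and 1 higher after quantile normalization. The share of all genes at this unadjusted threshold was not counted, so these counts cannot be read against it. The 10 genes had a median difference of -0.94 with centring, -0.53 without it and -0.45 with quantile normalization, in each case below that of all genes. Arrays hybridised with RNA of sorted cells show a share of RNA, so fewer cells with a transcript and less of it per cell cannot be told apart. The groups were sorted on an RNA dye and the arrays share a trimmed mean, so every fold given here is of a share of RNA. Amounts per cell were not measured, and a gene that was not called may still differ per cell. Of 4 measures of RNA quality, 3 differed between the groups. For ACTB, the 3′ control probe set exceeded the 5′ one on the log2 scale by 2.02 ± 0.20 (SD, n = 4) in cycling and 2.57 ± 0.18 (SD, n = 4) in quiescent samples, with no overlap (exact two-sided permutation test, p = 0.0286, the smallest that 4 against 4 allow; adjusted p = 0.0381 over 4 such ratios). The middle ACTB probe set gave a difference of 0.31 and the 5′ GAPDH probe set 0.16 in the same direction (exact p = 0.0286 each), whereas the ratio to the middle GAPDH probe set differed by 0.004 (exact p = 0.914). Its part in the differences was not tested.

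**Figure D1:**
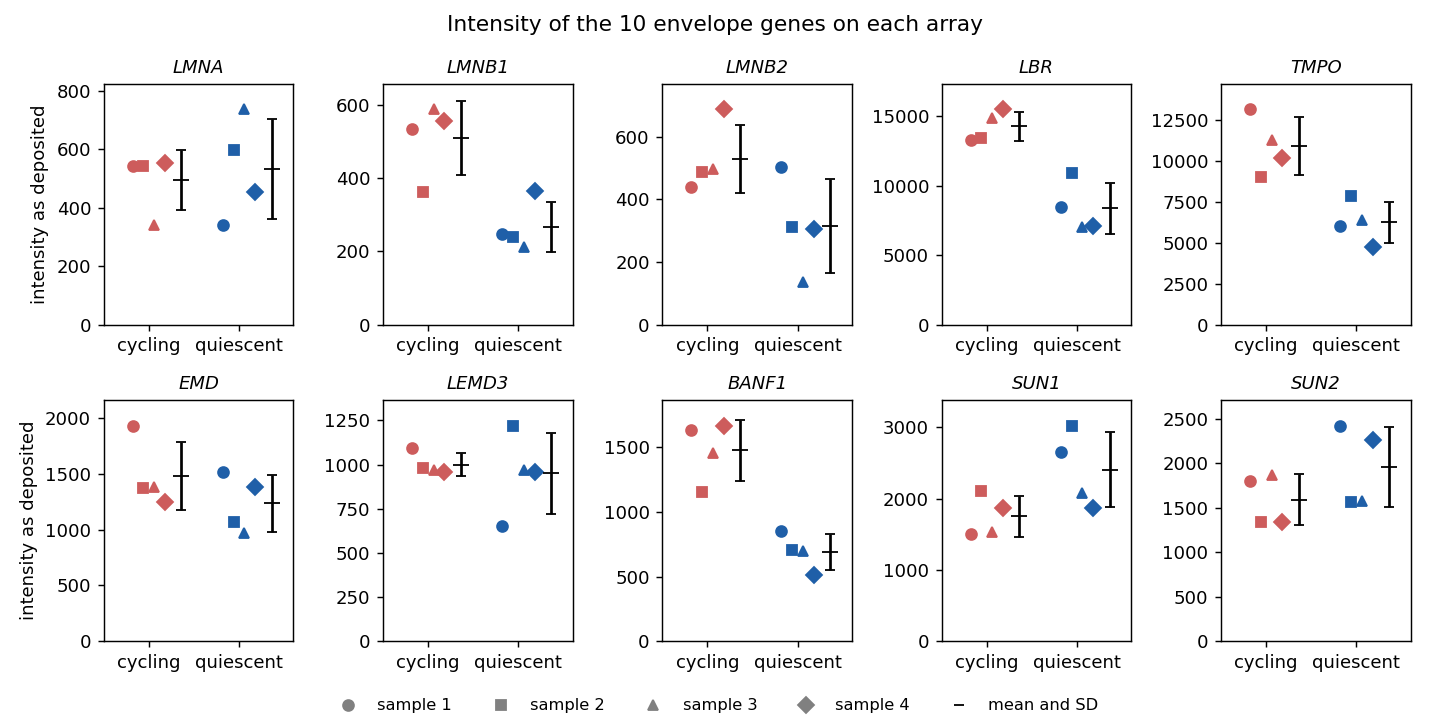
Intensity as deposited (vertical axis, arbitrary units from 0, each gene on its own scale) of the 10 genes on each of the 4 cycling (red) and 4 quiescent (blue) arrays, with sample numbers as marker shapes and the mean and SD as bars. The quiescent values of LBR, TMPO and BANF1 all lie under their cycling values, whereas those of LMNA, EMD, LEMD3, SUN1 and SUN2 overlap broadly.

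Of the 3 lamin genes, LMNB1, a B-type lamin, read 534, 362, 586 and 555 in cycling samples 1 to 4 and 248, 240.1, 211 and 365 in quiescent samples 1 to 4. Quiescent sample 4 lay just above cycling sample 2, and the other quiescent values lay below every cycling value. The means were 509 ± 101 and 266 ± 67.9 (SD, n = 4 each), so LMNB1 fell 1.92-fold as deposited (log2 -0.94, SE 0.23, limma adjusted p = 0.00794). Centred, the difference was -1.36 (SE 0.25, limma adjusted p = 5.45e-04) with no overlap between the groups, and after quantile normalization it was -1.14. Only 5.28% of all genes tested had a lower centred difference.

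LMNB2, the other B-type lamin, read 440.0, 487, 498 and 686 in cycling and 504, 313, 138 and 306 in quiescent samples. Quiescent sample 1 lay within the cycling range, and the other 3 lay below it, sample 3 lowest. The means were 528 ± 109 and 315 ± 150 (SD, n = 4 each). LMNB2 fell by 1.28 on the centred log2 scale (SE 0.32, limma adjusted p = 0.00505) and after quantile normalization (-1.05, adjusted p = 0.0326), while as deposited the difference of -0.87 (SE 0.32) missed the threshold at an adjusted p of 0.0628. It passed as deposited without quiescent sample 1.

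LMNA, which encodes lamins A and C, read 542, 544, 340 and 553 in cycling and 341, 597, 737 and 454 in quiescent samples. The groups overlapped, with quiescent samples 2 and 3 above the cycling range and the other 2 within it. The means were 495 ± 103 and 532 ± 172 (SD, n = 4 each), and the difference was -0.34 (SE 0.25) centred and 0.07 (SE 0.25) as deposited, with limma adjusted p = 0.312 and 0.850. The centred difference sat at the middle of all genes, with 49.5% of genes lower.

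LBR was bright and tight in cycling samples, at 13313, 13444, 14856 and 15504, and read 8452, 10904, 7065 and 7079 in quiescent samples. Every quiescent value lay below every cycling value, the closest being quiescent sample 2. The means were 14279 ± 1075 and 8375 ± 1807 (SD, n = 4 each), a 1.73-fold fall as deposited (log2 -0.79, SE 0.14, limma adjusted p = 0.00117). The difference was -1.20 (SE 0.18, adjusted p = 9.43e-05) centred and -0.66 (adjusted p = 0.00504) after quantile normalization.

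Among the LEM domain genes, TMPO fell under every scaling, EMD only when centred, and LEMD3 under none. TMPO, whose LAP2 proteins bind lamins, BANF1 and chromatin, read 13134, 9022, 11264 and 10164 in cycling and 6014, 7826, 6360 and 4760 in quiescent samples. The groups did not overlap. The means were 10896 ± 1750 and 6240 ± 1261 (SD, n = 4 each), a 1.76-fold fall as deposited (log2 -0.81, SE 0.16, limma adjusted p = 0.0021), with -1.23 (SE 0.21, adjusted p = 2.30e-04) centred and -0.69 (adjusted p = 0.0042) after quantile normalization.

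EMD, emerin, read 1929, 1370.3, 1387 and 1249 in cycling and 1518, 1071, 968 and 1386 in quiescent samples. The ranges overlapped, with 2 of 4 quiescent values under all cycling values. The means were 1484 ± 303 and 1236 ± 259 (SD, n = 4 each). The centred difference of -0.68 (SE 0.21) passed the test (limma adjusted p = 0.015), but -0.27 as deposited (adjusted p = 0.297) and -0.25 after quantile normalization (adjusted p = 0.371) did not. The centred call was also lost without cycling sample 1 (adjusted p = 0.0585) or quiescent sample 3 (adjusted p = 0.0568).

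LEMD3, also named MAN1, read 1096, 978, 967 and 958 in cycling and 654, 1218, 969.8 and 956 in quiescent samples. The cycling values were close together, and the quiescent ones spread to both sides of them. The means were 999.6 ± 64.9 and 949 ± 231 (SD, n = 4 each), and the differences of -0.52 (SE 0.21) centred and -0.11 as deposited were not called (limma adjusted p = 0.0582 and 0.693). Without quiescent sample 2 or without cycling sample 2 the centred difference passed, at adjusted p of 0.0260 and 0.0259, as it did with the filter at the 75th percentile (0.0375) and with sample numbers 3 and 4 alone (0.0343).

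BANF1, which bridges DNA to the LEM proteins, changed most of the 10 genes when centred and as deposited. It read 1638, 1152, 1453 and 1665 in cycling and 853, 709, 697 and 512 in quiescent samples. The groups did not overlap, and the lowest cycling value was that of sample 2, which stood apart from the other 3 when centred. The means were 1477 ± 236 and 693 ± 140 (SD, n = 4 each), a 2.14-fold fall as deposited (log2 -1.10, SE 0.18, limma adjusted p = 8.30e-04). The difference was -1.51 (SE 0.23, adjusted p = 8.04e-05) centred and -1.13 (adjusted p = 9.44e-04) after quantile normalization, and 3.78% of all genes had a lower centred difference.

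Of the SUN genes, SUN1 read 1508, 2108, 1525 and 1869.9 in cycling and 2654, 3018, 2079 and 1868.6 in quiescent samples. Quiescent samples 1 and 2 lay above all cycling values and the other 2 within them. The means were 1753 ± 289.5 and 2405 ± 527 (SD, n = 4 each). The difference was 0.03 (SE 0.19, limma adjusted p = 0.917) centred, 0.44 (SE 0.17, adjusted p = 0.0754) as deposited and 0.49 (SE 0.18, adjusted p = 0.0547) after quantile normalization. As deposited it was called higher without quiescent sample 4 (0.56, adjusted p = 0.0440) or without cycling sample 2 (0.54, adjusted p = 0.0412). SUN2 read 1799, 1342, 1873 and 1346 in cycling and 2421, 1562, 1577 and 2258 in quiescent samples, so quiescent samples 1 and 4 exceeded the cycling range. The means were 1590.0 ± 286 and 1955 ± 449.6 (SD, n = 4 each), and the difference turned from -0.13 (SE 0.22) centred to 0.29 (SE 0.18) as deposited, with limma adjusted p = 0.699 and 0.266. SUN1 and SUN2 lay higher in the order of all genes than the other 8, with 76.6% and 66.1% of genes below them on the centred scale.

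As deposited, 3 of the 10 genes (LBR, TMPO and BANF1) had all quiescent values under all cycling values, against 15.4% of all genes tested. Centred, LMNB1 and LMNB2 joined them, making 5 of 10 against 28.3%. The calls of BANF1, LMNB1, LMNB2, TMPO and LBR held without any 1 of the 8 arrays when centred, with largest adjusted p of 6.55e-04, 0.00385, 0.0196, 0.0017 and 8.75e-04 in that order (limma). Relative to the median of all genes, the centred differences were -1.18 for BANF1, -1.02 for LMNB1, -0.95 for LMNB2, -0.89 for TMPO, -0.87 for LBR, -0.35 for EMD, -0.19 for LEMD3, -0.01 for LMNA, 0.21 for SUN2 and 0.36 for SUN1. The first 5 lay within about 1 standard error of their neighbours, and a gap larger than any between neighbours separated them from EMD.

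**Figure D2:**
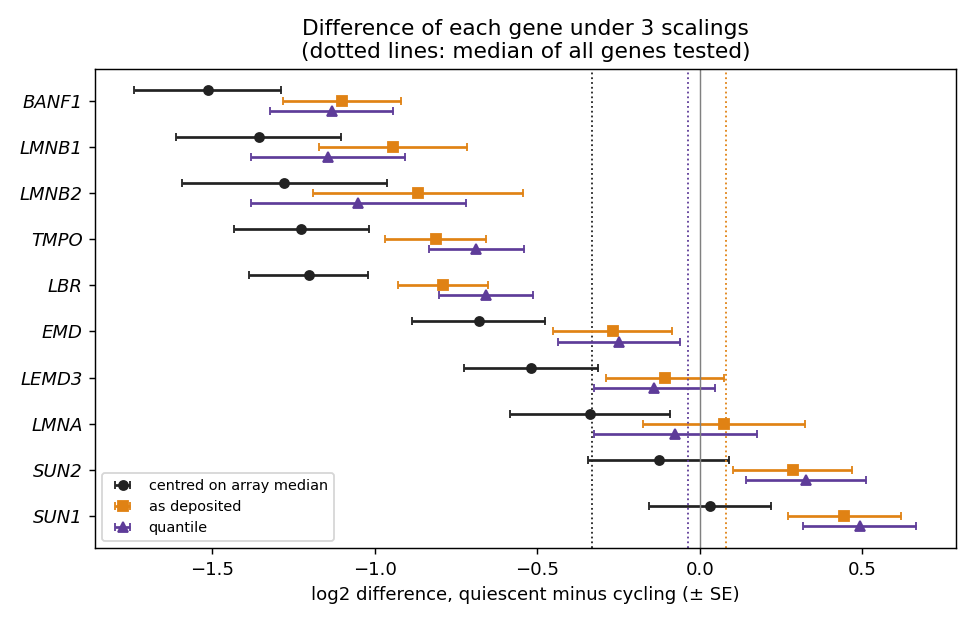
Log2 difference quiescent minus cycling (horizontal axis) with its standard error for the 10 genes, under median centring (black), as deposited (orange) and after quantile normalization (purple). Dotted lines of the same colours mark the median of all genes tested, -0.33, 0.08 and -0.04. BANF1, LMNB1, LMNB2, TMPO and LBR lie left of those medians under each scaling, and SUN1 and SUN2 lie right of them.

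Promoter sequence is shown for LMNB1, LBR, TMPO and BANF1, the genes that fell under every scaling. Each line gives the 250 bases before a RefSeq transcription start in GRCh38.p14, 5′ to 3′ on the gene's strand, from chr5:126776373-126776622 (plus) for LMNB1, chr1:225428822-225429071 (minus) for LBR, chr12:98515323-98515572 (plus) for TMPO and chr11:66002253-66002502 (plus) for BANF1. Capitals mark exact matches, on either strand, to 3 kinds of motif known from genes expressed with the cell cycle.
LMNB1: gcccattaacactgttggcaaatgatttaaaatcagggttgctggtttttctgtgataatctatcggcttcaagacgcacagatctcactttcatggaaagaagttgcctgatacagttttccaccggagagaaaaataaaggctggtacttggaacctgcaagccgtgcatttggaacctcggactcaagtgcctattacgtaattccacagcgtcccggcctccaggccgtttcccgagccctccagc
LBR: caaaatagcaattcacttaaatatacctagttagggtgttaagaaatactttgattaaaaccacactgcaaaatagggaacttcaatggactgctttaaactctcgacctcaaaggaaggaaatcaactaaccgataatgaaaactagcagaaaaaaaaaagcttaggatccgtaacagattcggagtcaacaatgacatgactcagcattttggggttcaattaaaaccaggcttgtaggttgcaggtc
TMPO: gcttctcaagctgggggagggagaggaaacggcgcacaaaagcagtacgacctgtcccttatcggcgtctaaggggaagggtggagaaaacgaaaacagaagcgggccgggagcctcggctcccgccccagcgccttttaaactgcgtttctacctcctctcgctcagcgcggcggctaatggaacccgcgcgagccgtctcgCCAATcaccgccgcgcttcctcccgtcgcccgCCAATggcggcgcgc
BANF1: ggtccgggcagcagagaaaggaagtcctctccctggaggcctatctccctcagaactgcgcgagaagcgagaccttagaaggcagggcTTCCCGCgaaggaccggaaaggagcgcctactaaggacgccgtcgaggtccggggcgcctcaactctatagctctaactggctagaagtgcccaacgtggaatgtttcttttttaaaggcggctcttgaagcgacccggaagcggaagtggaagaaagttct
The motifs searched were the cell cycle homology region (TTTGAA or TTCGAA), E2F-like sites (TTCCCGC or TTGGCGC or TTCGCGC or TTGCCGC) and the CCAAT box, and no motif of one kind overlaps another in these 4 windows. TMPO had CCAAT at -47 and -15 from its start and BANF1 had TTCCCGC at -162, while the LMNB1 and LBR windows shown had no match. A further LMNB1 start, downstream, had CCAAT on the minus strand at -138. Windows were present for 9 of the 10 genes. In windows of 250 bases before to 50 after the start, CCAAT occurred in 6 of 9 genes (EMD, LEMD3, LMNA, LMNB1, SUN2 and TMPO), E2F-like sites in 3 of 9 (BANF1, LEMD3 and LMNA) and the cell cycle homology region in 2 of 9 (LMNB2 and SUN2). Some genes have several windows. Per window, 7 of the 15 windows of the 9 genes held CCAAT, 3 of 15 an E2F-like site and 2 of 15 the cell cycle homology region, against 34.6%, 13.0% and 16.4% of all 35116 promoters. Matches thus stood both in genes that fell and in LEMD3, LMNA and SUN2, which were not called under any scaling.

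Several probe sets measured TMPO, LMNA and SUN1, and the other 7 genes had 1 each. Of the 22 probe sets, 18 passed the filter. All 3 further TMPO probe sets above the filter fell under each scaling, with log2 differences from -1.34 to -1.14 centred and from -0.93 to -0.73 as deposited, and limma adjusted p of 2.14e-04 to 8.92e-04 centred. Over all probe sets tested, 23.8% were lower centred, 10.8% as deposited and 11.9% after quantile normalization. The remaining TMPO probe set read under 3 on every array.

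The LMNA probe sets disagreed in direction. Probe set 212086_x_at read 319.7, 290.1, 324 and 377 in cycling and 605, 519.8, 525 and 498 in quiescent samples, without overlap. It rose as deposited (0.71, SE 0.17, limma adjusted p = 0.00836) and after quantile normalization (0.55, adjusted p = 0.0396), where 16.3% and 11.3% of all probe sets were higher, but its centred difference of 0.30 was not called (adjusted p = 0.301). Probe set 1554600_s_at gave 0.06 centred and 0.47 as deposited (adjusted p = 0.151), and 203411_s_at gave -0.27 and 0.14 (adjusted p = 0.748 as deposited), neither called. The suffix _x_at, carried also by the brightest LMNA probe set, marks probes that can match other transcripts. The further SUN1 probe sets, 214169_at and 230210_at, were dim and not called, at -0.33 and -0.39 centred and 0.08 and 0.02 as deposited.

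**Figure D3:**
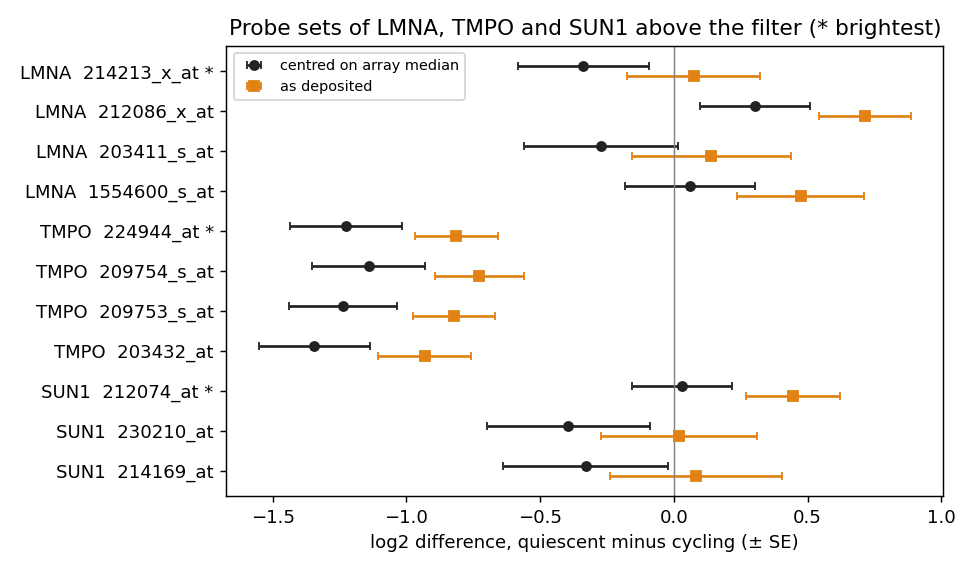
Log2 difference quiescent minus cycling (horizontal axis) with its standard error for each probe set of LMNA, TMPO and SUN1 above the filter, centred (black) and as deposited (orange). An asterisk marks the brightest probe set of a gene. The 4 TMPO probe sets lie together between -1.34 and -1.14 centred, whereas the LMNA probe sets spread from -0.34 to 0.30.

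Ratios of 2 genes within an array do not depend on the centring and show whether the genes changed unequally. The log2 ratio of LMNB1 to LMNA was 0.05 ± 0.57 in cycling and -0.97 ± 0.71 in quiescent samples (SD, n = 4 each), a difference of -1.02 (SE 0.45; exact two-sided permutation test, p = 0.0857, adjusted p = 0.190 over 5 ratios). LBR to LMNA went from 4.88 ± 0.39 to 4.01 ± 0.57, a difference of -0.86 (SE 0.35; exact p = 0.0857, adjusted 0.190). TMPO to EMD differed by -0.55 (SE 0.28; exact p = 0.114, adjusted 0.190) and by -0.36 without quiescent sample 4. The 3 ratios were lower in quiescent samples on average, but in each at least 1 quiescent sample overlapped the cycling range. No ratio passed the threshold before or after adjustment. Quantile normalization, unlike centring, changes these ratios. After it, LMNB1 to LMNA differed by -1.07, LBR to LMNA by -0.58 and TMPO to EMD by -0.44 (exact permutation test, adjusted p = 0.429, 0.500 and 0.524). The smallest p of this exact permutation test with 4 against 4 is 0.0286, so after adjustment even full separation in 1 ratio alone could not pass. LMNB1 to LMNB2 (-0.08, SE 0.41, exact p = 0.857) and SUN1 to SUN2 (0.16, SE 0.35, exact p = 0.714) differed by less than their standard errors.

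The choice of LMNA probe set mattered here. With 212086_x_at, an alternative chosen after seeing the data, LMNB1 to LMNA differed by -1.66 and LBR to LMNA by -1.51, both without overlap (exact permutation p = 0.0286 each, unadjusted). With 1554600_s_at the differences were -1.42 and -1.26, again without overlap (exact p = 0.0286). With 203411_s_at they were -1.08 (exact p = 0.0571) and -0.93 (exact p = 0.0857).

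**Figure D4:**
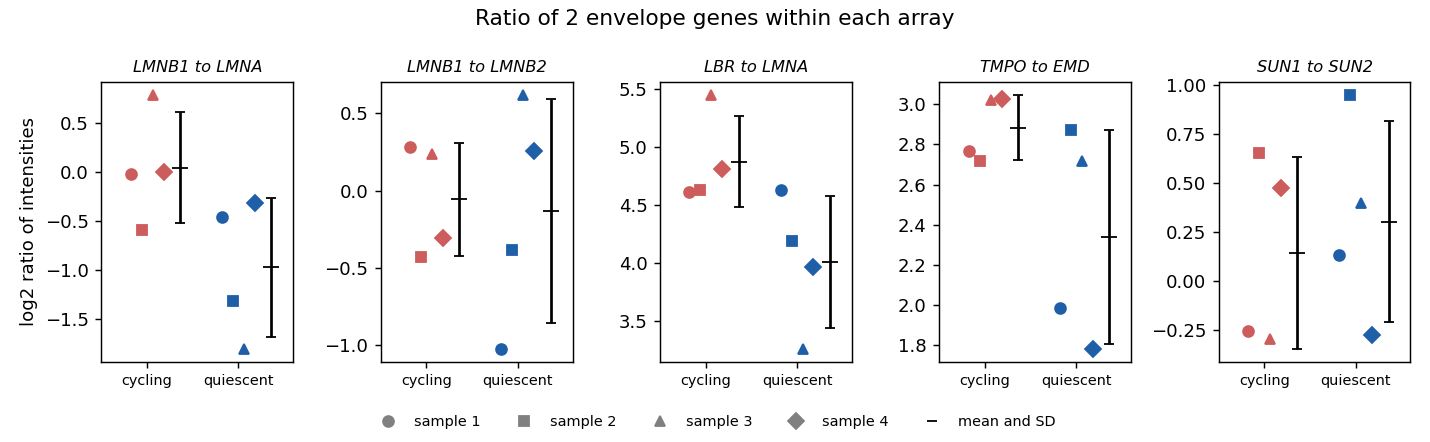
Log2 ratio of the intensities of 2 genes (vertical axis, each ratio on its own scale) on each of the 4 cycling (red) and 4 quiescent (blue) arrays, with the mean and SD as bars. LMNB1 to LMNA, LBR to LMNA and TMPO to EMD lie lower on average in quiescent samples, and the groups overlap in all 5 ratios.

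How the genes varied together across the 8 arrays is described by Pearson's r, without a test, since the groups themselves make up much of the spread. It was taken on log2 intensities as deposited, with the brightest probe set of each gene, and other scalings were not examined. The closest were TMPO and BANF1 (r = 0.92), LBR and TMPO (0.90) and LBR and BANF1 (0.90). After each group's mean was removed, r was 0.64, 0.56 and 0.42. LMNB1 followed BANF1, LBR and TMPO over all arrays (0.77, 0.76 and 0.70) but not within groups (-0.07, -0.06 and -0.16). Within groups SUN2 ran with EMD (0.82) and against LMNA (-0.84), the highest and lowest r of all pairs. LMNB1 ran against SUN1 over all arrays (-0.81), the lowest r there.

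Other genes of the envelope, in 6 lists, give the surroundings of these changes. Of 53 genes listed, 48 were tested. When centred, 23 fell and 2 rose (SYNE2 and FNTB), with a median of -0.51, against 32.5% and 2.8% of all genes. As deposited 11 fell and 8 rose (15.4% and 12.2% of all genes), and after quantile normalization 10 fell and 10 rose (16.3% and 10.5%). The counts of each list below stand beside these same shares of all genes.

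Among 11 other inner membrane, LEM domain and torsin genes, 3 fell and 0 rose centred, 2 fell and 2 rose as deposited, and 2 fell and 3 rose after quantile normalization. ANKLE1, a LEM domain nuclease, went from 1376.5 ± 153 in cycling to 482 ± 19.7 in quiescent samples (SD, n = 4 each), with a centred difference of -1.92 (limma adjusted p = 2.22e-06) and -1.51 as deposited. TMEM201 (SAMP1), an inner membrane protein, went from 254 ± 57.6 to 122 ± 53.2 (-1.58, adjusted p = 0.00371). Its call as deposited (-1.17, adjusted p = 0.0322) was lost without quiescent sample 4, cycling sample 1 or cycling sample 3. NEMP1 fell only when centred (-0.69, adjusted p = 0.00458; -0.28 as deposited, adjusted p = 0.119). TOR1AIP1 (LAP1), which activates torsin, read 2296 ± 302 and 2910 ± 238, with -0.07 centred (adjusted p = 0.795) and 0.35 as deposited (adjusted p = 0.0666). After quantile normalization it rose (0.41, adjusted p = 0.035).

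Of 6 tested KASH and other SUN genes, 1 fell and 1 rose centred and after quantile normalization, and 1 fell and 2 rose as deposited. SYNE2, the KASH protein nesprin-2, rose from 3366 ± 154 to 6949 ± 1157 (SD, n = 4 each), by 0.62 centred (SE 0.18, limma adjusted p = 0.0127) and 1.03 as deposited (adjusted p = 1.84e-04). The centred call was lost without quiescent sample 3 (adjusted p = 0.0535), and 1 of its 4 further probe sets rose when centred. IRAG2, a KASH protein abundant in germinal centre B cells, fell from 29717 ± 2948 to 21021 ± 2358 (-0.91 centred, adjusted p = 4.35e-04; -0.50 as deposited, adjusted p = 0.00333). Of its 2 further probe sets, 1 fell when centred (-1.04) and the other pointed the opposite way without a call (0.59). SYNE1, nesprin-1, was dim (140 ± 54.1 and 113 ± 76.8) and not called (-0.96 centred, adjusted p = 0.187).

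Of the 5 genes of lamin maturation, 2 fell and 1 rose when centred and as deposited, and 2 fell and 2 rose after quantile normalization. ZMPSTE24, the protease that cleaves prelamin A, went from 3230 ± 445 to 1647 ± 164 (-1.38 centred, limma adjusted p = 5.06e-05; -0.97 as deposited). ICMT, which methylates the prenylated end of lamins, went from 1304 ± 230 to 561 ± 138 (-1.65 centred, adjusted p = 6.21e-05; -1.24 as deposited). FNTB, a subunit of the farnesyltransferase, read 55.5 ± 17.2 and 181 ± 57.8 (1.29 centred, adjusted p = 0.0115) and makes up the rise counted when centred and as deposited. All 4 of its cycling values lay under the filter intensity of 83.3, so it was tested only through the quiescent group, where it is high, and its call supports no direction of the list. Its centred call was lost without quiescent sample 2 (adjusted p = 0.0548).

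Of the 16 tested genes of envelope breakdown and resealing, 9 fell and 0 rose centred, 5 fell and 2 rose as deposited, and 5 fell and 3 rose after quantile normalization. CDK1 and its cyclin CCNB1, which phosphorylate lamins at mitosis, had the lowest differences of the list, -3.23 and -2.67 centred. VRK1, the kinase that releases BANF1 from DNA, fell from 3795 ± 402 to 1418 ± 52.4 (-1.83 centred, limma adjusted p = 1.93e-06; -1.41 as deposited). PPP2CA, a catalytic subunit of the phosphatase PP2A that acts on BANF1 after mitosis, fell from 9686 ± 1336 to 6891 ± 752 (-0.90 centred, adjusted p = 0.00102; -0.49 as deposited, adjusted p = 0.0119). Its 2 further probe sets were not called when centred.

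Of the 7 tested chromatin partners of the lamina, 6 fell when centred, against 32.5% of all genes. As deposited 1 fell, against 15.4%, and after quantile normalization 0, against 16.3%. CBX5, the HP1 alpha protein that binds LBR, read 8482 ± 931 and 7385 ± 791 (-0.61 centred, limma adjusted p = 0.00862; -0.20 as deposited, adjusted p = 0.232), and its 5 further probe sets all fell when centred. CBX1 fell centred and as deposited (-0.91, adjusted p = 0.00261; -0.50, adjusted p = 0.0366) but not after quantile normalization (adjusted p = 0.0808), and its call as deposited, the only one of the list, was lost in 6 of 8 fits that left out 1 array. HDAC3, the deacetylase that binds TMPO and EMD proteins, fell only centred (-0.82, adjusted p = 0.00434; 0.0736 as deposited). CBX3 did likewise (-0.60, adjusted p = 0.00663; -0.18 as deposited, adjusted p = 0.147), and of its 3 further probe sets 1 fell and 1 rose centred.

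Of 3 tested sterol genes next to the LBR reductase step, 2 fell and 0 rose centred, whereas 0 fell and 1 rose under each other scaling. TM7SF2, the other sterol C14 reductase of the cell, read 2187 ± 163 and 2053 ± 366 (-0.52 centred, limma adjusted p = 0.0376; -0.10 as deposited, adjusted p = 0.618). DHCR7, a later reductase of the pathway, gave -0.63 (adjusted p = 0.0396) and -0.21 (adjusted p = 0.475). Both centred calls were lost in 6 of 8 fits that left out 1 array.

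**Figure D5:**
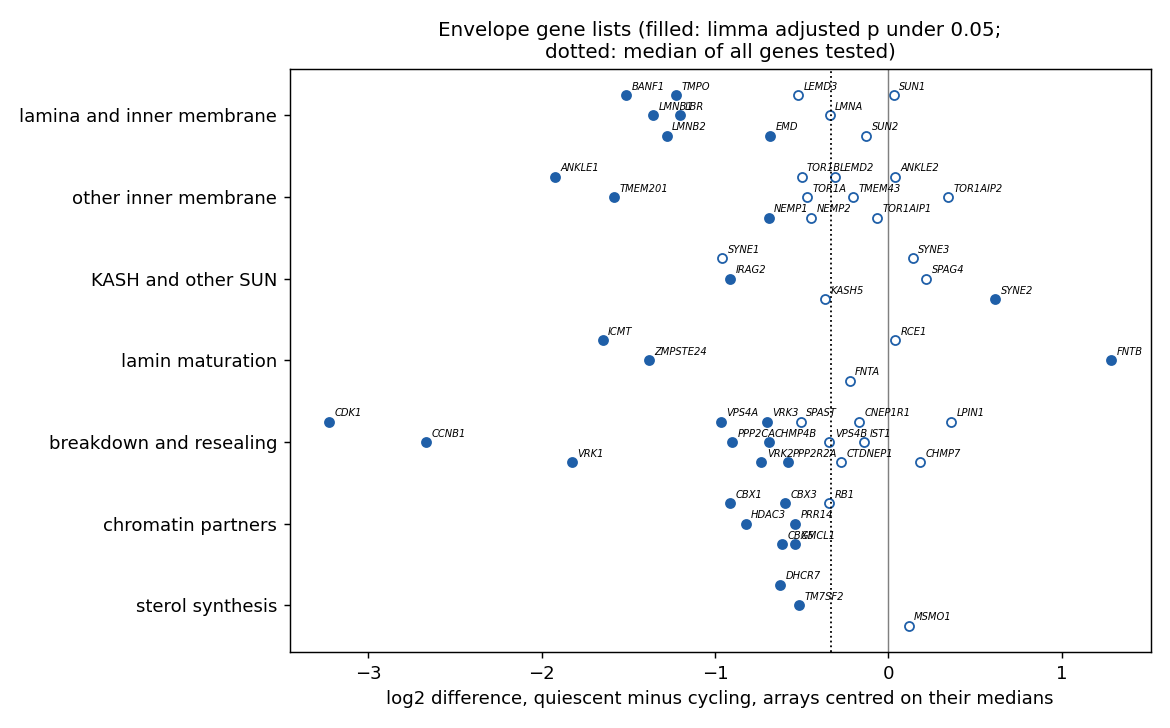
Centred log2 difference quiescent minus cycling (horizontal axis) of each tested gene, by list (rows; vertical offsets only separate the labels). Filled points had a limma adjusted p under 0.05, and the dotted line marks the median of all genes tested, -0.33. Of the 10 lamina and inner membrane genes in the top row, 6 are filled, all left of that line.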

How the data were processed

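Total RNA of 8 sorted samples, 4 cycling and 4 quiescent, was measured on Affymetrix arrays. The deposited table holds 1 linear intensity per probe set and array. Per the submitters' processing notes it was made with MAS5. Its version and settings are not given in the labels. From these intensities, values under 1 were set to 1, log2 was taken and each array was centred on its median over the 54613 probe sets that are no controls (54675 in all). GEO's platform annotation listed 42898 of them, 41097 with 1 gene symbol and 1801 with several (named for no gene), and left 11777 of the table's probe sets unlisted. Of the single symbols, 41043 matched by Entrez ID. The probe set with the highest mean log2 stood for each of 19775 genes, and 8097 genes with a mean under the median intensity of 83.3 were left out. The remaining 11678 were tested with limma 3.58.1 (lmFit, eBayes with trend and robust) in R 4.3.3, with Benjamini-Hochberg adjustment over all of them and a threshold of 0.05. Other probe sets were tested likewise over 27307 probe sets. Ratios used exact permutation tests (scipy 1.17.1) over 70 assignments. The number of arrays limits the precision. On simulated data of 11678 genes with 200 changed, equally up and down, the test recovered 45% of 2-fold and 91% of 4-fold changes, with 4 false calls. In the real data 3795 genes were lower and 327 higher when centred, so the share recovered there may differ. The 10 genes, the other lists and the motifs were chosen with earlier results of these data known. Named beside the 10 genes were up to 4 genes of each list called when centred, with the smallest adjusted p, and SYNE1, SYNE2, ZMPSTE24, TOR1AIP1, VRK1, CBX5 and TM7SF2 whatever their result. Genes of the lists called higher only as deposited or after quantile normalization were therefore counted but, TOR1AIP1 aside, not named. Alternatives were other scalings, filters, an offset of 32, the median over probe sets, sample numbers as a block, subsets of sample numbers, and leaving out each array. Promoter windows came from RefSeq (GRCh38.p14).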

Additional observations from a re-analysis of the deposited data

Results flagged for a closer look

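When centred, BANF1 in cycling sample 2 stood apart from the other cycling samples. On the centred log2 scale its gap to the nearest of them was 0.909 of the whole range of the group. Its intensity as deposited was 1152, against 1453 to 1665 in the others, but the gap was not examined on that scale. The median of this array was 97.9, against 71.9 to 79.1 on the other cycling arrays, so centring lowered its values more. This BANF1 value was the only one set apart in 30 groups of 4 examined (10 genes, each group, and the ratios), and chance alone sets apart about 1 in 20 such groups. BANF1 kept its call without this array.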

How the results depend on the processing

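BANF1, TMPO and LBR kept their direction under every alternative run, and LMNB1 under every one but the filter at the 75th percentile, which leaves out LMNB1 and LMNB2. As deposited, 1802 genes were lower and 1430 higher, with 11 and 8 in the other lists. After quantile normalization the counts were 1909 and 1232, with 10 and 10. The higher count of the lists was 1 with the filter at the 75th percentile (intensity 422), with the median over probe sets and with sample numbers 3 and 4 alone. Sample numbers 1 and 2 alone gave 412 lower and 31 higher genes, 0 of the 10 lower (limma; no p under the threshold), and 5 and 0 in the lists. Without 1 array, 2945 to 4536 genes were lower and 223 to 358 higher, 5 to 7 of the 10 were lower, and 18 to 25 and 1 to 2 in the lists. As deposited without 1 array, an alternative added after seeing the data, 4 to 5 of the 10 were lower and 0 to 1 higher.

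Direction turned only for small differences. LMNA became 0.075 as deposited and its probe set 203411_s_at 0.14. SUN2 became 0.29 as deposited, 0.33 after quantile normalization, 0.030 with numbers 1 and 2 alone and ran from -0.29 to 0.017 without 1 array, above 0 only without cycling sample 3. SUN1 became -0.36 with the median over probe sets, -0.31 with numbers 3 and 4 alone, and ran from -0.084 to 0.17 without 1 array, below 0 without cycling sample 1 or without quiescent sample 1 or 2. Its further probe sets became 0.083 and 0.019 as deposited. The SUN1 to SUN2 ratio became -0.24 with the median over probe sets and ran from -0.058 to 0.35 without 1 array, and LMNB1 to LMNB2 from -0.33 to 0.22. The cause of these changes was not tested.

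The labels do not say whether same-numbered samples share a culture, and they were not treated as paired. Their deviations correlated at 0.344, 0.196, 0.110 and 0.0361, and cycling sample 4 was closest to quiescent sample 3 (0.138). With the replicate block, 4443 genes were lower and 465 higher, and 7 of the 10 were lower, LEMD3 joining (-0.52, limma adjusted p = 0.0445). As deposited with the block, SUN1 passed (0.44, limma adjusted p = 0.0195). With 1 array left out or with the block, the exact tests of the ratios cannot go below p = 0.0571 and 0.125.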
